A study of Mus musculus with 6 samples.

Results

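The genes described here mark the lymphocytes of the heart: 36 genes chosen by name, 15 of B and plasma cells and 21 of T and natural killer (NK) cells, out of 54838 genes counted in atrial RNA of old mice. All 36 were found in the table by Ensembl identifier, and 33 had counts. Atria were taken from mice of an average age of 20.9 ± 0.43 months, of both sexes per the labels, with 3 libraries labelled as knockout (KO) of protein kinase C epsilon (PKC-epsilon, gene Prkce) and 3 labelled as wild type (WT). The KO line is JAX stock #004189 and the WT line is C57BL/6J. The promoter or allele design of the KO line is not given in the sources used here, and nothing in the labels says which animals shared a litter or cage.

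B cells recognise antigen through a surface immunoglobulin made of a heavy and a light chain and signal through the CD79 pair. Once activated they can become plasma cells, which secrete the same immunoglobulin in bulk, and the J chain joins secreted IgM and IgA into polymers. T cells recognise antigen with a receptor of alpha and beta or gamma and delta chains that signals through the CD3 proteins, while NK cells kill without such a receptor. The heart holds small resident and circulating populations of all of these cells.

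The labels disagree on genotype. The library name gives one genotype and the genotype field, with the title and the mouse line, gives another for 4 of the 6 libraries. The text below uses the library name, and takes replicate numbers from the titles. Under the field, the KO libraries are those labelled KO replicate 1, WT replicate 2 and WT replicate 3, called field-KO libraries below, and the field-WT libraries are those labelled WT replicate 1, KO replicate 2 and KO replicate 3. Prkce itself had 9.20, 5.15 and 28.6 CPM (counts scaled to a common library size) in the libraries labelled KO replicate 1, 2 and 3, against 36.2, 11.7 and 30.2 CPM in those labelled WT replicate 1, 2 and 3. The levels thus go against the library name for KO replicate 3 and WT replicate 2, and against the genotype field for KO replicate 2 and WT replicate 3, so no direction below can be assigned to genotype with certainty under either reading. Both readings are given for the 36 genes as lists and for the tested genes named below that either reading separates. Other genes are given by library name first. In every list of 3 values the libraries stand in the order of their replicate numbers.

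Total counts per library ran from 11574206 to 24138824, and 3 counts correspond to 0.132 to 0.252 CPM. The summed level of Y-linked genes lay between 78.9 and 126 CPM in the libraries labelled KO, against 1.08, 1.09 and 146 CPM in those labelled WT, so by library name the groups also differ in Y-linked expression. Grouped by the field, each genotype has 1 library without it. The library names form 2 series, one with a library of each label (KO replicate 1 and WT replicate 1) and one with the other 4. Nppa and Myl7, which mark atrial cardiomyocytes, had levels of 9551 to 14725 CPM and 5247 to 6895 CPM over the 6 libraries.

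Lymphocyte transcripts were scarce in these atria, with the exception of immunoglobulin. Summed over the 15 B and plasma cell genes, the level was 106, 241 and 158 CPM in the libraries labelled KO, against 128, 118 and 104 CPM in those labelled WT. By the field the sums were 106, 118 and 104 CPM in field-KO, against 128, 241 and 158 CPM in field-WT libraries, without overlap. Ighm, the constant region of IgM, made up between 60% and 72.4% of that sum in each library. Without the immunoglobulin and J chain genes, the B and plasma cell genes summed to 32.0, 34.0 and 24.3 CPM in field-KO libraries. In field-WT libraries they summed to 19.0, 41.3 and 31.9 CPM, with overlap in both readings. The 21 T and NK cell genes summed to 27.7, 38.4 and 38.4 CPM in the libraries labelled KO, against 40.0, 28.0 and 36.9 CPM in those labelled WT. By the field these sums were 27.7, 28.0 and 36.9 CPM in field-KO, against 40.0, 38.4 and 38.4 CPM in field-WT libraries, also without overlap. The ratio of the B and plasma cell sum to the T and NK cell sum was 3.81, 6.26 and 4.12 in the libraries labelled KO, against 3.21, 4.21 and 2.82 in those labelled WT. For this ratio the groups overlap in both readings. In bulk tissue, fewer cells of a type and less RNA per cell cannot be told apart.

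Per kilobase of annotated exon, Ighm had the highest mean level of the 36 genes at 51.1 CPM per kb over all libraries. Next came Trac, the constant region of the T cell receptor alpha chain, at 8.10 CPM per kb, Blk, a Src-family kinase of B cells, at 5.28, Mzb1, a chaperone of immunoglobulin secretion, at 4.24, and Jchain at 4.00 CPM per kb. The other genes with counts lay between 0.0426 CPM per kb for Cr2 and 3.39 CPM per kb for Iglc2, and 4 of the 33 (Cr2, Tnfrsf17, Cd5 and Gzmb) were too low to be tested. Igkc, Ms4a1 and Ncr1 had 0 counts in all libraries. Igkc, the kappa light chain constant region, and Ms4a1, which encodes CD20, lie wholly inside other annotated genes and so had no part of the gene body free, so their 0 carries no information on their level. Ncr1, an NK cell receptor also called NKp46, has its whole body free, and its 0 allows up to 0.132 to 0.252 CPM per library.

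Spread between libraries differed widely among the genes. A chi-square of the counts against equal levels, divided by its 5 degrees of freedom, is near 1 where counting noise alone separates the libraries. It had a median of 5.18 over the 13 B and plasma cell genes with counts and of 3.42 over the 20 T and NK cell genes with counts. Ighm reached 254, Jchain 46.3 and Blk 22.1, whereas Tnfrsf17 was at 0.802 and Lck at 0.974. For Ighm the highest library exceeded the lowest 2.70-fold and for Jchain 3.76-fold, while Trac varied only 1.31-fold.

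Ighm (chr12:113418558-113422730, minus strand, GRCm38) had 63.3, 171 and 106 CPM in the libraries labelled KO, against 92.9, 75.0 and 69.8 CPM in those labelled WT. The library labelled KO replicate 2 stood highest and KO replicate 1 lowest, so the groups by library name overlap. Grouped by the field, the same values are 63.3, 75.0 and 69.8 CPM in field-KO libraries, against 92.9, 171 and 106 CPM in field-WT libraries, and the groups do not overlap. The means were 69.4 ± 5.85 CPM in field-KO and 123 ± 41.8 CPM in field-WT libraries (SD, n = 3 each). Ighd, the constant region of the IgD receptor of mature naive B cells, had 3.52, 6.82 and 3.57 CPM in the libraries labelled KO, against 3.00, 2.27 and 1.97 CPM in those labelled WT. Each library labelled KO was above each one labelled WT for this gene. Grouped by the field its values overlap, with a log2 fold change of -0.775 (SE 0.386).

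The constant regions that switched B and plasma cells use were led by Ighg2c, which encodes an IgG subclass of C57BL/6 mice. Its level was 58.1, 61.6 and 69.1 CPM in the libraries labelled KO, against 64.8, 54.4 and 47.3 CPM in those labelled WT, with overlap. Grouped by the field it had 58.1, 54.4 and 47.3 CPM in field-KO libraries, against 64.8, 61.6 and 69.1 CPM in field-WT libraries, without overlap, with a log2 fold change of -0.29 (SE 0.13) that did not pass the test. Of the counts in all heavy chain constant genes, Ighm took 48%, 68.3% and 56.9% in the libraries labelled KO, against 56.2%, 56.5% and 52.1% in those labelled WT. Ighg2c took 44%, 24.6% and 37.1% in the libraries labelled KO, against 39.2%, 40.9% and 35.3% in those labelled WT. The library labelled KO replicate 2 thus combined the highest Ighm with the lowest share of Ighg2c.

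**Figure D1:**
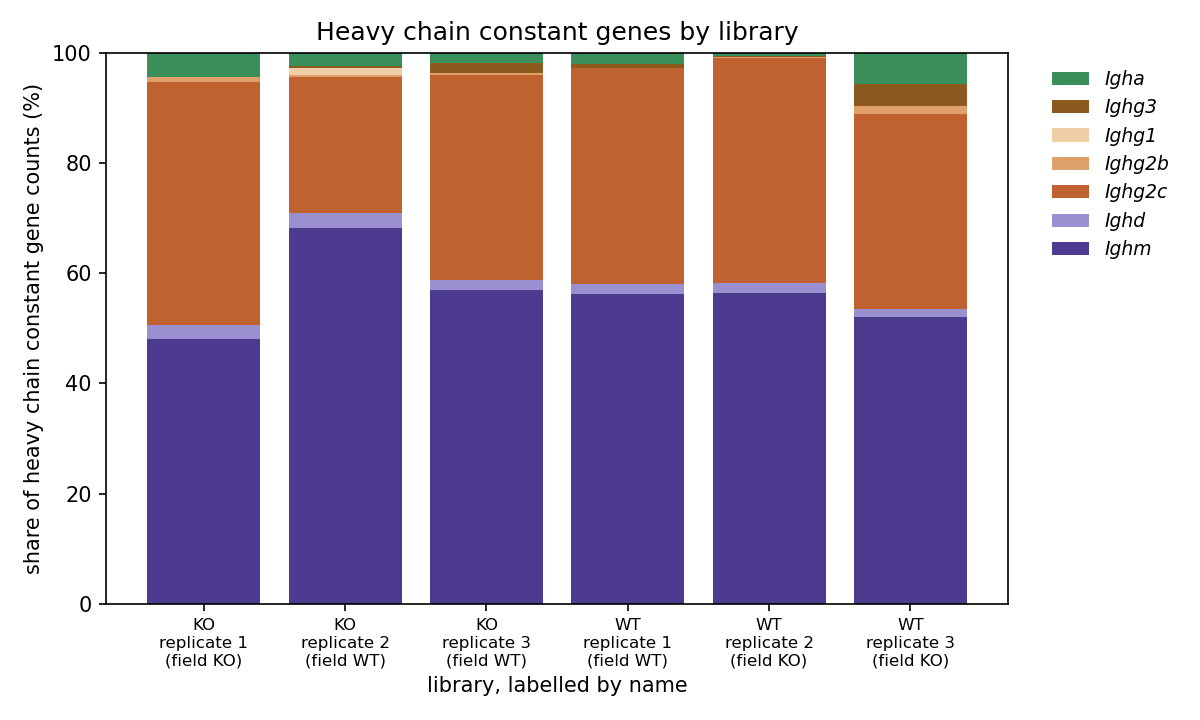
Stacked bars give the share of heavy chain constant gene counts (percent, vertical axis) held by each gene in each library, with the 3 libraries labelled KO left of the 3 labelled WT and the genotype field under each name. Ighm and Ighg2c fill most of each bar, and the library labelled KO replicate 2 has the largest Ighm share, 68.3%.

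The minor isotypes varied from animal to animal. Igha, the constant region of IgA, had 5.68, 5.87 and 3.28 CPM in the libraries labelled KO, against 3.30, 0.757 and 7.58 CPM in those labelled WT. Ighg3 had 0, 16 and 69 counts in the libraries labelled KO, against 17, 2 and 124 counts in those labelled WT. Ighg1 had 0, 41 and 1 counts in the libraries labelled KO and 0 in each library labelled WT, so 1 library holds nearly all of its counts. Ighe, which encodes IgE, had 0 counts in all libraries with its whole body free. The IgG genes are near copies of each other, and how reads shared between them were counted is not given in the sources used here, so their split is uncertain.

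Among light chains, Iglc2, a lambda constant region, had 1.36, 2.25 and 3.92 CPM in the libraries labelled KO, against 2.16, 1.68 and 1.10 CPM in those labelled WT. Grouped by the field it had 1.36, 1.68 and 1.10 CPM in field-KO libraries, against 2.16, 2.25 and 3.92 CPM in field-WT libraries, without overlap. Its neighbours Iglc1 and Iglc3 had 0 counts in all libraries, but no part of their bodies is free of other genes.

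The variable (V) segments offer a view of which immunoglobulins these transcripts encode, and of kappa chains in spite of the gap at Igkc. Of 218 V segments in the table, 126 had counts, 3559 counts in all. The number of V counts was 339, 969 and 706 in the libraries labelled KO, against 736, 226 and 583 in those labelled WT. At library-size scale this was 19.3, 70.3 and 34.6 CPM in the libraries labelled KO, against 44.1, 19.0 and 25.6 CPM in those labelled WT. Under the field reading the V level was 19.3, 19.0 and 25.6 CPM in field-KO libraries, against 44.1, 70.3 and 34.6 CPM in field-WT libraries, without overlap, as for Ighm and Iglc2.

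In each library 1 kappa segment led, and 5 different segments did so over the 6 libraries. The 3′ ends of their coding sequences are shown because they hold the start of the antigen-contacting loop that is completed by joining to a J segment. Each run is the last 90 bases of the segment in GENCODE M21 (GRCm38, chromosome 6), 5′ to 3′ on the coding strand, and the capitals mark the bases after the last in-frame cysteine codon, the germline start of the third complementarity-determining region.
Igkv8-24: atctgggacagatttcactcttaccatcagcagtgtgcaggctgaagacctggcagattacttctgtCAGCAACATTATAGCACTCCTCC
Igkv8-30: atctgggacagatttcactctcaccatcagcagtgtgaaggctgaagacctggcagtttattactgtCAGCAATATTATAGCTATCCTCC
Igkv4-91: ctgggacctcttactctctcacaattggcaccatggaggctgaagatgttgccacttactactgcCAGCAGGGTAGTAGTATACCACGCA
Igkv17-121: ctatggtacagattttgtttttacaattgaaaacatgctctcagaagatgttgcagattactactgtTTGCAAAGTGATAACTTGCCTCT
Igkv3-2: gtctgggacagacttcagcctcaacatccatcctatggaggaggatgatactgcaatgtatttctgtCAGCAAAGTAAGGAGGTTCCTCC

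Igkv8-24 (chr6:70216858-70217421, minus strand) and Igkv8-30 (chr6:70117061-70117620, minus strand) belong to the same family and share 91% of aligned coding bases. The other pairs among the 5 share between 57.3% and 66%. Reads that fit both Igkv8 segments may have been lost or split, and the same holds for other segments with close relatives.

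The segment that led was mostly a different one in each animal. Igkv8-30 held 372 of the 969 V counts in the library labelled KO replicate 2, 38.4% (95% exact binomial interval 35.3% to 41.5%), against at most 3.95% in each other library. Igkv8-24 held 18% (14.1% to 22.5%) in KO replicate 1, against at most 1.84% in each other library. Igkv17-121 (chr6:68036812-68037318, plus strand) held 22.1% (19.2% to 25.3%) in WT replicate 1, against at most 3.24% in each other library. Igkv1-117 came close to it in WT replicate 1, with 141 counts against 163.

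Igkv4-91 (chr6:68768555-68769103, minus strand) was the only segment to lead in 2 libraries, 1 of each label. It held 29.3% (26% to 32.8%) in KO replicate 3, against 33.6% (27.5% to 40.2%) in WT replicate 2, and 2.95% to 6.35% in the other 4 libraries. In WT replicate 3 the lead was small, with Igkv3-2 (chr6:70698449-70699067, plus strand) at 10.3%. These intervals cover counting error only, since reads without molecular identifiers are not independent molecules.

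The evenness of V use can be put as an effective number of segments (the inverse Simpson index). It was 16, 5.67 and 9.39 in the libraries labelled KO, against 9.64, 6.62 and 25 in those labelled WT, with overlap. Of the 126 segments with counts, 42 had counts in 1 library alone and 8 had counts in all 6. Lambda V segments took 3.64%, 1.08% and 6.56% of light chain V counts in the libraries labelled KO, against 0%, 3.41% and 2.09% in those labelled WT. In WT replicate 1 this was 0 of 554 counts, which allows up to 0.664% (upper bound of the exact interval).

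**Figure D2:**
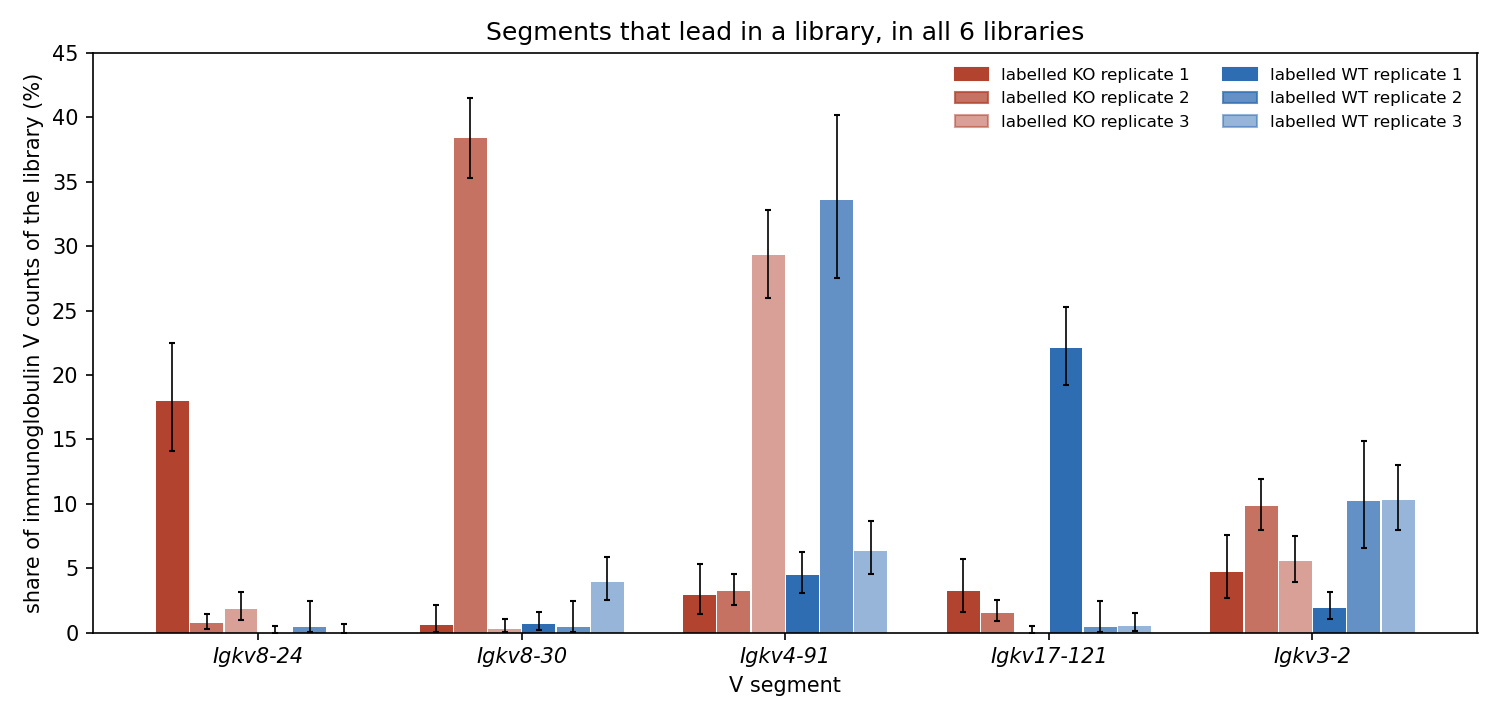
Bars give the share of a library's immunoglobulin V counts (percent) held by each segment that led in at least 1 library, with the libraries labelled KO left of those labelled WT and 95% exact binomial intervals as lines. Igkv8-30 stands at 38.4% in KO replicate 2 alone, whereas Igkv4-91 is high in KO replicate 3 and in WT replicate 2.

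Jchain (chr5:88519809-88527891, minus strand), which B cells turn on as they become antibody-secreting cells, had 5.28, 19.3 and 12.7 CPM in the libraries labelled KO, against 11.2, 5.13 and 6.71 CPM in those labelled WT. By library name the groups overlap, with KO replicate 1 and WT replicate 2 the lowest. By the genotype field the values are 5.28, 5.13 and 6.71 CPM in field-KO libraries, against 11.2, 19.3 and 12.7 CPM in field-WT libraries, and each field-WT library lay above each field-KO library. The means were 5.71 ± 0.869 CPM in field-KO and 14.4 ± 4.29 CPM in field-WT libraries (SD, n = 3 each). The ratio of Jchain to Ighm counts was 0.0834, 0.113 and 0.120 in the libraries labelled KO, against 0.121, 0.0685 and 0.0960 in those labelled WT, with overlap. Grouped by the field, the ratio was 0.0834, 0.0685 and 0.0960 in field-KO libraries, against 0.121, 0.113 and 0.120 in field-WT libraries, without overlap.

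Other genes of antibody-secreting cells did not share this order. Mzb1 had 4.32, 5.58 and 5.87 CPM in the libraries labelled KO, against 3.00, 7.24 and 4.91 CPM in those labelled WT, with both the highest and the lowest library among those labelled WT. Tnfrsf17, which encodes the plasma cell survival receptor BCMA, had at most 0.435 CPM in any library and was too low to be tested. Pou2af1, a coactivator of immunoglobulin transcription, ran from 1.27 to 2.39 CPM in the libraries labelled KO, against 1.01 to 2.44 CPM in those labelled WT.

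In a list of 10 further genes of plasma cell differentiation and secretion, all tested, 5 had a positive and 5 a negative log2 fold change by library name and none passed the test. Derl3, a factor of protein degradation in the endoplasmic reticulum, and Creld2, a stress-induced protein of the same compartment, had the smallest p of that list, with log2 fold changes of -1.19 (SE 0.54) and -0.69 (SE 0.33) by library name and of 0.29 (SE 0.62) and 0.81 (SE 0.29) by the genotype field. Under the field reading 6 of the 10 were positive and 4 negative, and none passed the test. Most of these genes, such as Xbp1 at 116 to 164 CPM, are also expressed by other cell types.

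The surface and lineage genes of B cells were at a few CPM. Cd79a had 3.01, 3.99 and 2.59 CPM in the libraries labelled KO, against 2.76, 3.03 and 1.53 CPM in those labelled WT. Its partner Cd79b had 3.29, 5.15 and 4.26 CPM in the libraries labelled KO, against 2.88, 4.46 and 2.41 CPM in those labelled WT. Both overlap between groups, with KO replicate 2 the highest and WT replicate 3 the lowest library.

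Blk (chr14:63372836-63417037, minus strand) had 16.6, 20.3 and 14.9 CPM in the libraries labelled KO, against 6.96, 14.1 and 12.6 CPM in those labelled WT. The groups do not overlap, and the library labelled WT replicate 1 lay below the other 5. Fcer2a, which encodes the low-affinity IgE receptor CD23 of follicular B cells, had 1.19, 1.45 and 1.37 CPM in the libraries labelled KO, against 0.660, 1.01 and 0.482 CPM in those labelled WT, also without overlap. Neither gene was separated by the genotype field, where the log2 fold change was 0.04 (SE 0.33) for Blk and -0.39 (SE 0.53) for Fcer2a.

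Pax5, the transcription factor that fixes B cell identity, had 1.19, 1.52 and 0.734 CPM in the libraries labelled KO, against 0.360, 1.01 and 0.833 CPM in those labelled WT, with overlap. Cr2, which encodes the complement receptor CD21, had 36 counts in all and none in KO replicate 1. In a list of 27 genes of B cell receptor signalling and B cell transcription factors, 23 were tested, of which 16 had a positive and 7 a negative log2 fold change by library name, and none passed the test. Ebf1, a transcription factor that acts with Pax5, and Pik3cd, a lymphocyte phosphoinositide kinase, had the smallest p, with log2 fold changes of -0.39 (SE 0.18) and 0.35 (SE 0.21) by library name and of 0.19 (SE 0.20) and 0.10 (SE 0.23) by the field. With the field as the grouping 12 of the 23 were positive and 11 negative, and none passed the test.

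**Figure D3:**
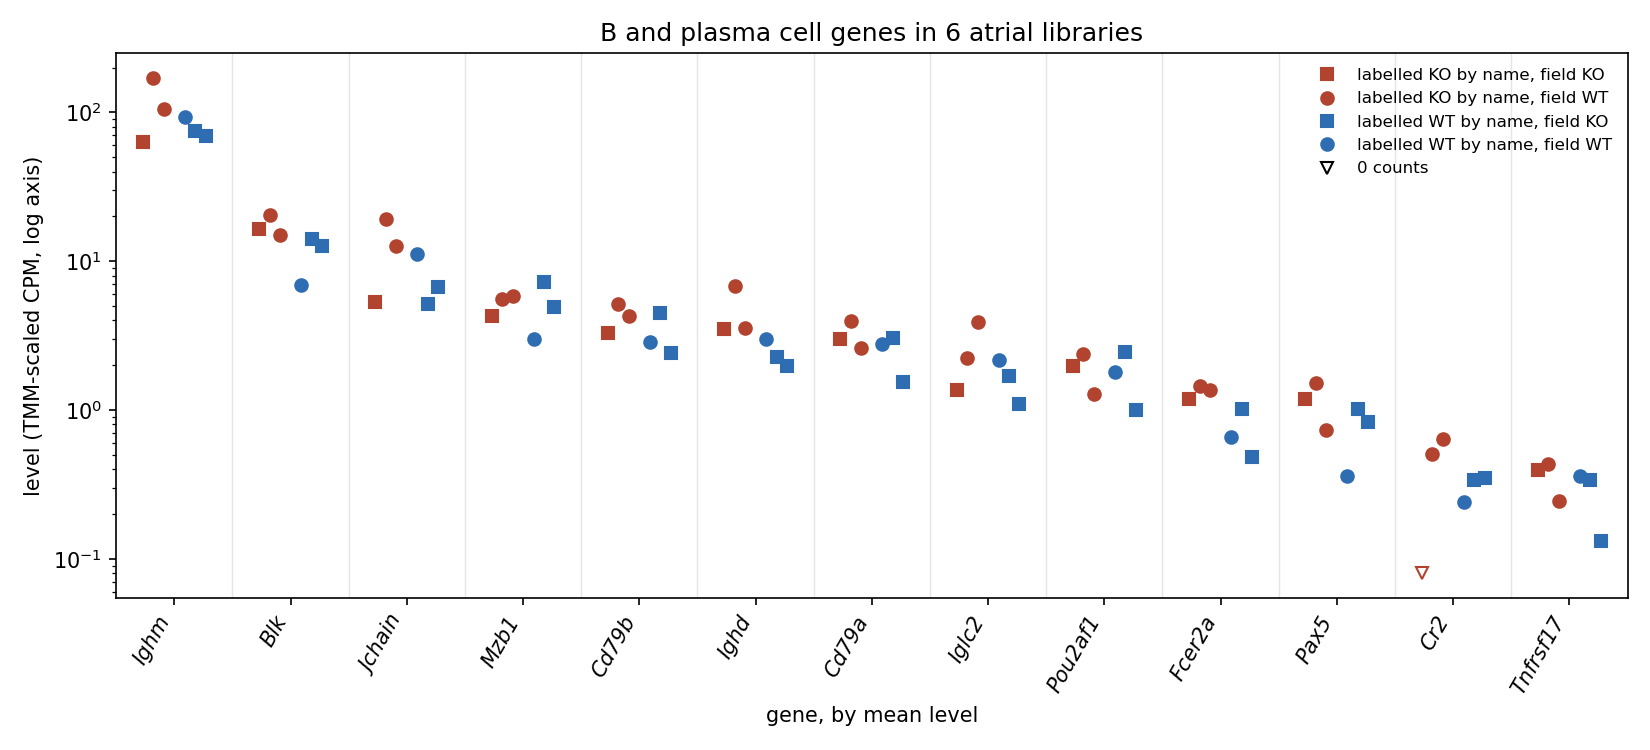
Levels of the 13 B and plasma cell genes with counts (TMM-scaled CPM, log axis) are shown as 1 point per library, red and left for libraries labelled KO and blue and right for those labelled WT, with squares for field-KO and circles for field-WT libraries. Red points lie above blue ones for Blk, Ighd and Fcer2a, while circles lie above squares for Ighm, Jchain and Iglc2.

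By library name, the test found 0 of 14708 genes past an adjusted p of 0.05 (0%) with edgeR's quasi-likelihood test, DESeq2 or limma-voom, and so none of the 29 genes tested here. At an unadjusted p under 0.05 there were 219 genes with edgeR (1.49% of genes tested), among them 2 of the 29. These were Ighd, at 0.93 on the log2 scale (SE 0.36), and Blk, at 0.62 (SE 0.26), both with adjusted p = 0.99993 by edgeR. All 11 tested B and plasma cell genes had a positive log2 fold change, with a median of 0.62, against a median of -0.02 and 6694 of 14708 positive over all genes tested. In 3 of the 11 (Ighd, Fcer2a and Blk) every library labelled KO was above every one labelled WT, as it was for 490 of 14708 genes (3.33%). The reverse order held for 2.62% of genes tested and for none of the 29.

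The lean rested in part on 1 library. Without the library labelled KO replicate 2, which was the highest of 6 for 8 of the 11 genes, the median was 0.235. The sum of 7 adipocyte markers was also highest there, at 485, 927 and 677 CPM in the libraries labelled KO, against 511, 715 and 561 CPM in those labelled WT. Ucp1, the uncoupling protein of brown fat, had 57.4 CPM in KO replicate 2, against 0 to 3.54 CPM in the other 5 libraries. The part of fat in these values was not tested. Within the larger series of library names alone the median was 0.56, and with the Y-linked level as a covariate it was 0.78.

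The median of the same genes had the opposite sign by the genotype field. This follows in part from the labels alone, since the readings swap those of 4 of the 6 libraries. The test called 2 of 14708 genes (0.0136%), none of them among the 29. Of the 11 tested B and plasma cell genes, 3 had a positive and 8 a negative log2 fold change, with a median of -0.31, against -0.01 over all genes tested. Without the immunoglobulin and J chain genes, the other 7 had 3 positive and 4 negative values and a median of -0.02. Leaving out WT replicate 3 gave the 11 a median of -0.068, leaving out KO replicate 2 gave one of -0.0995, and the median was 0.0988 without both libraries whose Prkce level goes against the field. For 3 of the 11 (Ighm, Jchain and Iglc2) every field-KO library was below every field-WT library, as it was for 661 of 14708 genes (4.49%). The reverse order held for 7.48% of genes tested and for none of the 29. At an unadjusted p under 0.05 there were 837 genes (5.69%), among them these 3.

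Jchain stood at -1.32 on the log2 scale (SE 0.25), with adjusted p = 0.536 by edgeR, and Ighm at -0.83 (SE 0.21), with adjusted p = 0.675. Iglc2 stood at -1.03 (SE 0.40), with adjusted p = 0.868 by edgeR. The replicate numbers are those of the titles, and no label says that libraries of the same number share a source. With the replicate number as a block, which pairs a field-KO with a field-WT library, 51 genes were called (0.347%), of which 3 were lower in field-KO libraries (0.0204%). Jchain and Ighm were 2 of these 3. In that fit Jchain fell by 1.29 on the log2 scale (SE 0.23, adjusted p = 0.0195 by edgeR) and Ighm fell by 0.78 (SE 0.15, adjusted p = 0.0264).

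Within the pairs, the ratio of the field-KO to the field-WT library was 0.471, 0.266 and 0.527 for Jchain and 0.682, 0.439 and 0.659 for Ighm. Jchain was also called by DESeq2 without the block, at -1.34 on the log2 scale (SE 0.28) with adjusted p = 0.00218. The direction of Jchain and Ighm was the same in each alternative fit by the genotype field. By library name their direction was also constant but positive, from 0.228 to 1.42 for Jchain and from 0.0976 to 0.938 for Ighm. A constant sign is thus not particular to either reading. Leaving out the library labelled KO replicate 2 gave log2 fold changes of -1.06 for Jchain and -0.52 for Ighm. Leaving out both libraries whose Prkce level goes against the genotype field gave -1.21 with adjusted p = 0.674 for Jchain, and -0.54 with adjusted p = 0.837 for Ighm, by edgeR.

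Of the 7 adipocyte markers tested, 6 had a negative and 1 a positive log2 fold change in this reading, and none passed the test. Their sum was 485, 715 and 561 CPM in field-KO libraries, against 511, 927 and 677 CPM in field-WT libraries. Lep, the gene of the fat hormone leptin, had 0.114, 0.421 and 0.438 CPM in field-KO libraries, against 1.14, 2.47 and 1.91 CPM in field-WT libraries, without overlap. Its log2 fold change was -2.48 (SE 0.59) with adjusted p = 0.606 by edgeR, and -2.51 (SE 0.57) with adjusted p = 0.0709 with the replicate block. That of Ucp1 was -3.67 (SE 1.91). The part of fat in the values of Jchain and Ighm was not tested.

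**Figure D4:**
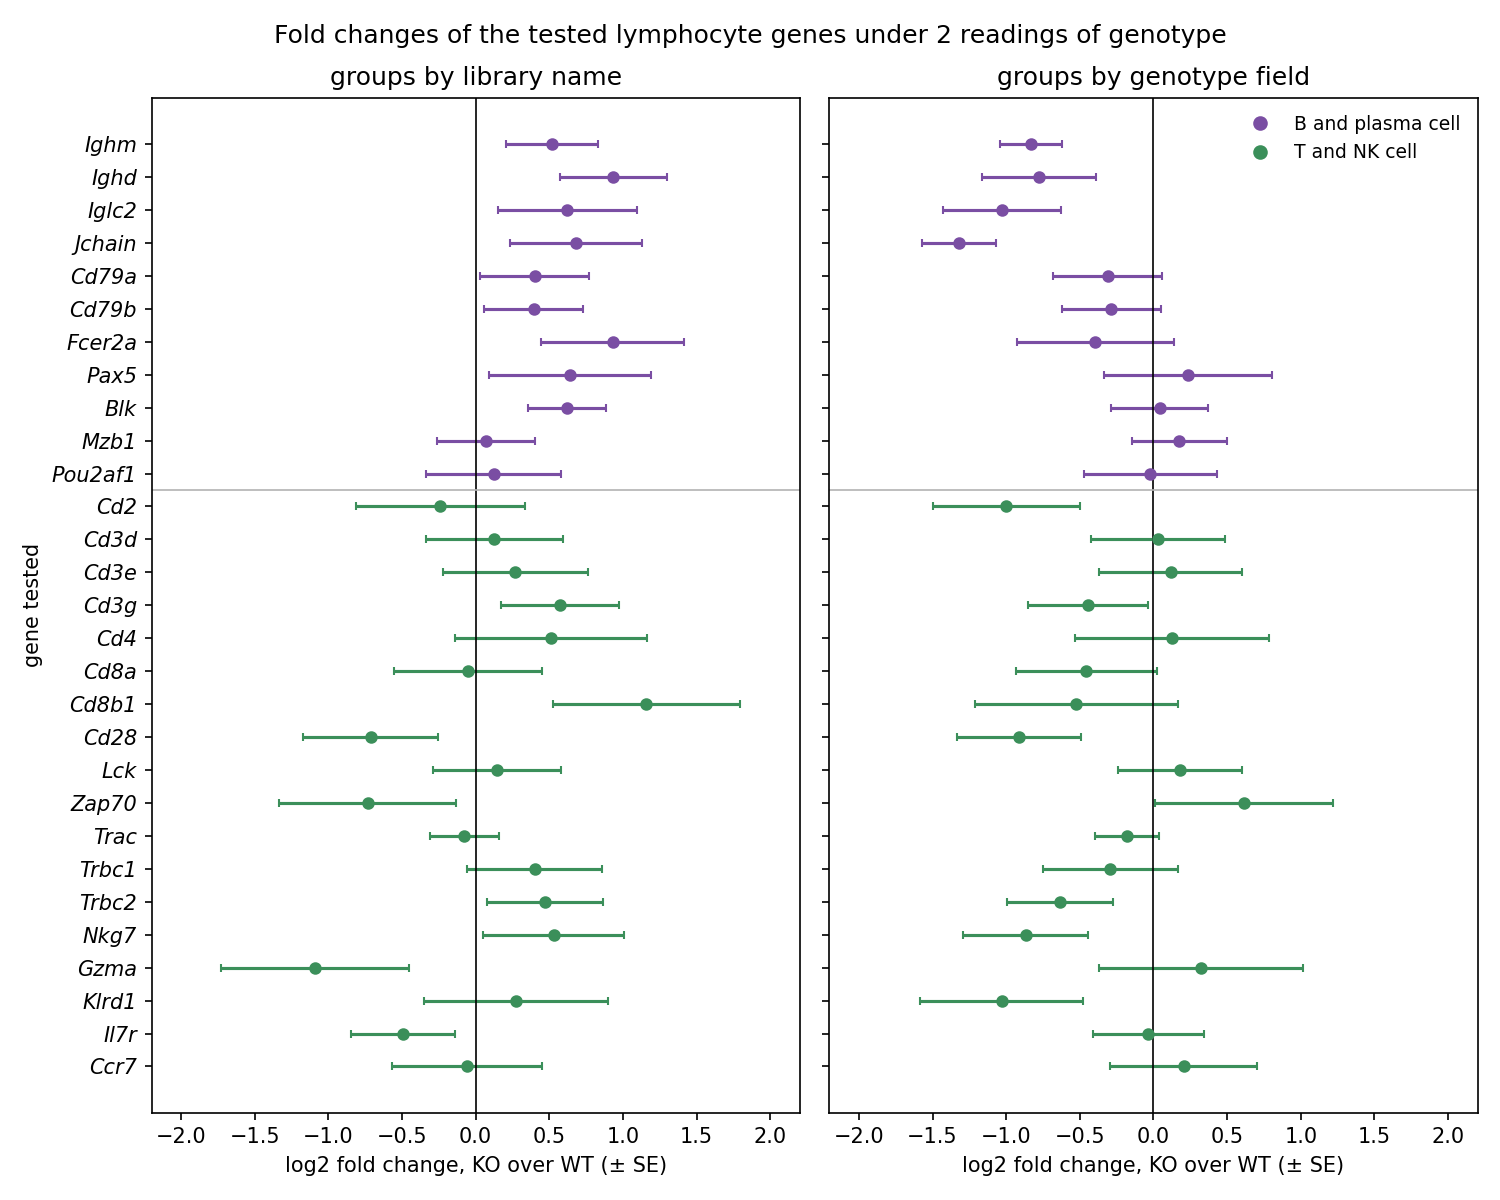
Points are log2 fold changes, KO over WT, of the 29 tested genes with bars of 1 SE, with groups by library name in the left panel and by the genotype field in the right panel. The 11 B and plasma cell genes all lie right of 0 by library name, while Jchain, at -1.32, lies farthest left by the genotype field.

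Transcripts of the T cell receptor and its CD3 partners were present in each animal at low levels. Trac (chr14:54220521-54224206, plus strand) had 6.64, 6.96 and 8.47 CPM in the libraries labelled KO, against 8.64, 8.16 and 6.58 CPM in those labelled WT. It had the smallest fold range between libraries of the 29 tested genes, 1.31-fold. Its log2 fold change was -0.08 (SE 0.23) by library name and -0.18 (SE 0.22) by the genotype field. The beta chain genes Trbc1 and Trbc2 ran from 1.02 to 2.79 CPM in the libraries labelled KO, against 1.09 to 1.92 CPM in those labelled WT; they are near copies, so their split is uncertain.

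Of the CD3 genes, Cd3g had the highest level, with 2.56, 4.50 and 2.30 CPM in the libraries labelled KO, against 2.22, 1.35 and 2.59 CPM in those labelled WT. Cd3d ran from 0.979 to 2.10 CPM in the libraries labelled KO, against 1.08 to 1.75 CPM in those labelled WT, and Cd3e from 1.02 to 1.31 CPM, against 0.600 to 1.43 CPM. All 3 overlap between groups in both readings. V segments of the T cell receptor gave too few counts for a view of its repertoire, 97 counts in 20 of 144 segments.

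Gamma chain constant genes were counted as well. Tcrg-C1 had 1.42, 1.38 and 1.52 CPM in the libraries labelled KO, against 0.660, 1.68 and 2.50 CPM in those labelled WT. The delta chain gene Trdc had 1 count over all libraries, and 39.4% of its body lies outside other genes.

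The coreceptors that separate helper from cytotoxic T cells were near 1 CPM. Cd4 had 0.795, 1.16 and 0.979 CPM in the libraries labelled KO, against 0.240, 0.337 and 1.36 CPM in those labelled WT. Cd8a had 1.31, 1.38 and 1.37 CPM in the libraries labelled KO, against 2.04, 0.505 and 1.58 CPM in those labelled WT. Cd8b1, the beta chain of CD8, had 1.08, 0.943 and 1.57 CPM in the libraries labelled KO, against 0.540, 0.0842 and 0.877 CPM in those labelled WT. It was the only T or NK cell gene tested in which each library labelled KO lay above each one labelled WT, with a log2 fold change of 1.16 (SE 0.64), and WT replicate 2 held 1 count. By the field its groups overlap, with a log2 fold change of -0.52 (SE 0.69).

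Costimulation and signalling genes had no common order. Cd28, the main costimulatory receptor of naive T cells, had 1.76, 3.12 and 3.28 CPM in the libraries labelled KO, against 7.68, 2.10 and 3.51 CPM in those labelled WT. The high value of WT replicate 1 set its log2 fold change of -0.71 (SE 0.46), which was -0.07 without that library. Cd2, an adhesion receptor of T and NK cells, had 0.398, 2.32 and 1.62 CPM in the libraries labelled KO, against 2.34, 1.26 and 1.45 CPM in those labelled WT, with KO replicate 1 far below the rest.

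Lck, the kinase that phosphorylates the CD3 chains, was even, at 1.31, 1.52 and 1.52 CPM in the libraries labelled KO, against 0.840, 1.52 and 1.58 CPM in those labelled WT. Zap70, the kinase that binds the phosphorylated chains, had 0.398, 0.363 and 0.881 CPM in the libraries labelled KO, against 0.480, 0.926 and 1.36 CPM in those labelled WT. Cd5, a negative regulator of receptor signalling, had 1 count in KO replicate 1 and 41 in all, and was too low to be tested. Its level was 0.0568, 0.218 and 0.294 CPM in the libraries labelled KO, against 0.780, 0.673 and 0.438 CPM in those labelled WT, without overlap. Grouped by the field it overlaps. In a list of 27 genes of T cell receptor signalling and T cell transcription factors, 15 were tested, of which 9 had a positive and 6 a negative log2 fold change by library name, and none passed the test. Il2ra, the interleukin 2 receptor alpha chain, had a log2 fold change of -0.60 (SE 0.53) by library name and of -0.22 (SE 0.55) by the field. The field reading gave 6 positive and 9 negative values for this list, with none past the test.

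Genes of cytotoxic and NK cells were lower still. Nkg7, a protein of cytotoxic granules, had 1.08, 2.90 and 1.86 CPM in the libraries labelled KO, against 1.62, 0.842 and 1.49 CPM in those labelled WT. Klrd1, the CD94 chain of NK receptors, had 0.625, 0.870 and 1.76 CPM in the libraries labelled KO, against 1.38, 0.253 and 1.01 CPM in those labelled WT. Gzma, a granule protease, had 0.227, 0.218 and 0.636 CPM in the libraries labelled KO, against 0.660, 1.18 and 0.614 CPM in those labelled WT. Gzmb had 44 counts in all, none of them in WT replicate 2, and was too low to be tested.

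Of 19 further genes of gamma-delta T, NK and cytotoxic cells, 17 were found by symbol and 6 were tested. By library name 5 of the 6 had a positive log2 fold change and none passed the test. The gamma chain constant genes are not among these 6. Tcrg-C1, Tcrg-C2 and Tcrg-C4 had log2 fold changes of -0.177 (SE 0.497), -0.233 (SE 0.473) and -0.467 (SE 0.71) by library name. By the field these were 0.661, -0.359 and -0.944. Klrk1, which encodes the receptor NKG2D, had 1.42, 0.798 and 1.66 CPM in the libraries labelled KO, against 0.480, 0.337 and 0.614 CPM in those labelled WT, without overlap. Its log2 fold change was 1.40 (SE 0.53) by library name and -0.30 (SE 0.64) by the field. That of Ctsw, a protease of cytotoxic cells, was 0.94 (SE 0.49) by library name and -0.71 (SE 0.51) by the field. Of the 6 genes, 2 were positive and 4 negative by the field, and none passed the test.

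Il7r, the receptor for the survival cytokine interleukin 7, had 2.22, 2.32 and 3.13 CPM in the libraries labelled KO, against 3.90, 2.27 and 4.56 CPM in those labelled WT. Ccr7, the receptor that guides naive lymphocytes to lymphoid tissue, had 1.02, 1.89 and 0.685 CPM in the libraries labelled KO, against 0.840, 1.35 and 1.49 CPM in those labelled WT. Both overlap between groups in either reading.

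Of 19 genes of lymphocyte homing, survival and lymphoid tissue cues, 12 were tested, with 8 positive and 4 negative log2 fold changes by library name and 6 of each sign by the field, and none passed the test in either reading. Cxcr3, a receptor of effector T cells, had a log2 fold change of 1.25 (SE 0.48) by library name and of -0.07 (SE 0.59) by the field. Tnfsf13b, which encodes the B cell survival factor BAFF, had one of 0.20 (SE 0.21) by library name and of -0.17 (SE 0.20) by the field. Cxcl13, the chemokine that attracts B cells, had 60.5, 65.6 and 61.4 CPM in the libraries labelled KO, against 50.9, 55.5 and 69.3 CPM in those labelled WT.

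**Figure D5:**
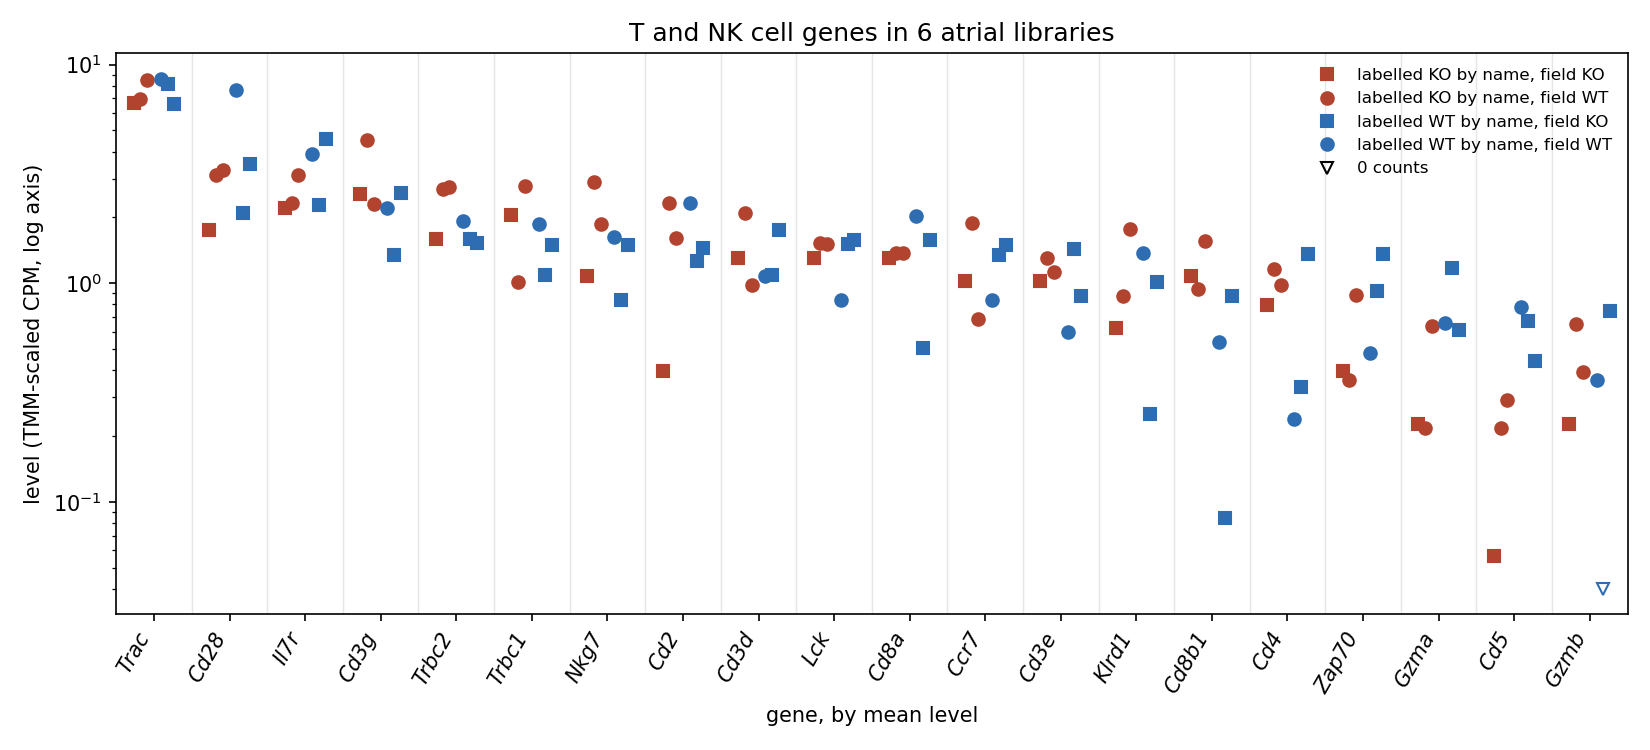
Levels of the 20 T and NK cell genes with counts (TMM-scaled CPM, log axis) are shown as 1 point per library, red and left for libraries labelled KO and blue and right for those labelled WT, with squares for field-KO and circles for field-WT libraries and open triangles for 0 counts. Trac is the highest gene and has the smallest fold range, and the colours overlap in most of the others.

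Among the 18 T and NK cell genes tested, 10 had a positive and 8 a negative log2 fold change by library name, with a median of 0.13, and none had an unadjusted p under 0.05. That median was -0.04 without the library labelled KO replicate 2 and -0.02 with the Y-linked level as a covariate. Under the field reading 7 were positive and 11 negative, with a median of -0.24, and none passed the test or had an unadjusted p under 0.05. This median was -0.125 without the library labelled WT replicate 2, -0.13 without KO replicate 1, -0.437 without WT replicate 3, and -0.56 without both libraries whose Prkce level goes against the field. In 3 of the 18 (Cd2, Trbc2 and Nkg7) every field-KO library was below every field-WT library, against 4.49% of all genes tested, and for Cd8b1 alone every library labelled KO was above every one labelled WT, against 3.33%. By the field, Cd2, Trbc2 and Nkg7 had log2 fold changes of -1 (SE 0.498), -0.636 (SE 0.359) and -0.868 (SE 0.426). By library name these were -0.239, 0.471 and 0.531. No direction of the T and NK cell genes as a group was shared by both readings. The readings swap the labels of 4 of the 6 libraries, so opposite signs follow in part from the labels alone. Within the larger series of library names, where every label is swapped, the medians were 0.239 by library name and -0.239 by the field.

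Markers of thymus and germinal centres were looked at because such tissue could carry lymphocytes into an atrial sample. Foxn1 and Psmb11, which mark thymic epithelium, had 0 counts in all libraries with their whole bodies free. Dntt, an enzyme of V(D)J joining in immature lymphocytes, had 7 counts in WT replicate 1 and 0 elsewhere. Of the 14 genes of that list, 8 had counts, 4 were tested and none passed the test in either reading. The list was thus not silent. It summed to 34.4, 35.2 and 29.9 CPM in the libraries labelled KO, against 39.4, 41.5 and 37.2 CPM in those labelled WT, without overlap. By the field the sums overlap. Bcl6 held 12.5 to 20.0 CPM of each sum and Mybl1 0.600 to 1.74 CPM, and most of the rest lay in genes of the list not named here. Whether such tissue was carried into these samples was not tested. Bcl6, a germinal centre transcription factor that other cells express too, had a log2 fold change of -0.52 (SE 0.19) by library name and of 0.10 (SE 0.23) by the field, and Mybl1 one of 0.80 (SE 0.47) by library name and of -0.01 (SE 0.52) by the field.

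Other cells of the tissue were checked in the same way. No tested marker of macrophages (10 genes), dendritic cells (5), neutrophils and mast cells (9), red blood cells (4), adipocytes (7), the epicardium and mesothelium (6), lymphatic endothelium (5) or atrial cardiomyocytes (6) passed the test in either reading. The epicardial and mesothelial genes Krt19 and Aldh1a2 had log2 fold changes by library name of -0.73 (SE 0.26) and -0.56 (SE 0.18). For both, each library labelled KO was below each one labelled WT. By the field both overlap, at 0.326 (SE 0.316) and 0.124 (SE 0.238). The leading genes of the other lists were Lyve1 at -0.31 and Mrc1 at 0.12 for macrophages, Cd209a at 0.55 and Zbtb46 at -0.17 for dendritic cells, and Kit at -0.48 and Cma1 at -0.38 for mast cells. For red blood cells they were Hbb-bt at -0.48 and Hbb-bs at -0.24, for adipocytes Ucp1 at 3.30 (SE 2.03) and Lep at 1.14, for lymphatic endothelium Prox1 at -0.19 and Reln at -0.17, and for cardiomyocytes Myl7 at 0.17 and Nppa at 0.18. Kit and Prox1 were also lower in each library labelled KO than in each one labelled WT. By the field they overlap, at -0.163 (SE 0.286) and -0.00784 (SE 0.138). The same order by library name held for 2.62% of all genes tested.

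Summed macrophage markers ran from 1083 to 1314 CPM in the libraries labelled KO, against 906 to 1348 CPM in those labelled WT. Red blood cell markers summed to between 47.6 and 142 CPM in the libraries labelled KO, against 70.7 to 175 CPM in those labelled WT. The library labelled WT replicate 1, where Blk was lowest, was also the lowest for 7 of the 10 macrophage markers. Epicardial and mesothelial markers summed to 138, 172 and 200 CPM in the libraries labelled KO, against 188, 219 and 241 CPM in those labelled WT, and all 6 were lowest in KO replicate 1. The part of these cells in the lymphocyte values was not tested.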

How the data were processed

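RNA of 6 atria was sequenced from 1 µg of total RNA per library after TruSeq v2 preparation, per the labels' protocols, which keeps no strand. The authors deposited raw read counts per Ensembl gene, not normalised. Per the submitters' processing notes, reads were handled with HISAT2 2.1.0, featureCounts 1.5.0-p3, FastQC 0.11.5 and MultiQC 1.7 on the build GRCm38; which annotation and strand setting were used, and how multi-mapped reads were treated, is not given in the sources used here. Symbols, coordinates and exon lengths came from GENCODE M21, which held 54809 of 54838 identifiers. Of 1328 protein-coding genes whose body lies wholly inside other listed genes, 1318 (99.2%) have 0 counts in all libraries, so the free share of the body is given where it bears on a value.

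Counts were tested with edgeR 4.0.16 (R 4.3.3; TMM, filterByExpr, robust quasi-likelihood F test, two-sided) over all 14708 genes that passed the filter, with Benjamini-Hochberg adjustment over all of them and a threshold of 0.05. Fold changes are KO over WT, and the SE is the size of the log2 value divided by the root of F. CPM are TMM-scaled. The fit was tested on simulated data with 200 changed genes. Alternatives were DESeq2 1.42.0, its size factors, limma-voom (limma 3.58.1), no low-count filter, a replicate block, covariates, and omitted libraries. Same-numbered libraries deviated together, with correlations of 0.157, 0.162 and 0.121 by library name and 0.269, 0.227 and 0.121 by the genotype field, the numbers being those of the titles. Libraries of different numbers reached at most 0.134, by the genotype field (field-KO 2 with field-WT 3), above the lowest same-numbered pair. Every same-numbered pair was above 0.1, so blocked values are given where they change a call. These correlations come from the same counts as the test and cannot show that the pairs share a source.

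The 36 genes and the other lists were chosen with earlier results of these data known. Of each other list, the 2 genes with the smallest p by library name are named, except 1 that is not reported here; other genes named outside the lists of 36 (Xbp1, Cxcl13, Dntt and the receptor genes) were picked to describe levels after their values were seen. No label says that replicates share a source, and p-values measure the spread between these mice alone.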

Additional observations from a re-analysis of the deposited data

How the results depend on the processing

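By library name, 0 genes were called, 1 without a low-count filter, 3 in the numbered library series alone, 6 without the 2 libraries at odds with Prkce, and 0 to 4 when 1 library was left out (2 without WT replicate 1, 4 without WT replicate 3). No gene of the 29 tested above was among them, and the 4 genes too low to be tested there were not checked. By the genotype field, 2 genes were called, 27 with DESeq2, 1 with limma-voom, 25 without a filter, 51 with the replicate block, 7 with the library series as a covariate, and 0 to 2 with 1 library left out (0 without KO replicate 3 or WT replicate 1). Of the tested genes here, Jchain was called with DESeq2, without a filter and with the block, and Ighm without a filter and with the block; the block changed no other call of theirs. The median of the B and plasma cell genes by library name ran from 0.235 (without KO replicate 2) to 0.656 with 1 library left out. By the genotype field it ran from -0.495 (without WT replicate 2) to -0.068 (without WT replicate 3), and it was 0.0988 without the 2 libraries at odds with Prkce. The median of the T and NK cell genes by library name ran from -0.0384 (without KO replicate 2) to 0.219, and it was -0.0203 with the Y-linked covariate. By the genotype field it ran from -0.437 (without WT replicate 3) to -0.125, and it was -0.56 without the libraries at odds with Prkce. The cause of these shifts was not tested. Another scaling (DESeq2 size factors) changed the sign of no tested gene here in either reading, while leaving out WT replicate 1 changed the sign of 6 of 29 by library name and of 8 of 29 by the genotype field. Depth limits what can be said of the rarer genes: 4 of the 33 with counts were too low to be tested.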
